A study of Mus musculus with 22 samples.

Results

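The genes described here mark the cells of the brain's blood vessels. They were chosen by name: 24 genes of endothelial cells, which line the vessels, and 16 genes of mural cells, the pericytes and smooth muscle cells that wrap them. Of these 40 names, 37 matched a measured gene, 23 of them endothelial and 14 mural, among 20239 named genes on the arrays. The names Rgs5x, Cspg4x and Ly6a matched none and were not analysed here. No gene of the 37 passed the test for a difference between Ts1Cje and wild-type mice in either brain region.

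Ts1Cje mice carry an extra copy of a distal segment of mouse chromosome 16, the counterpart of part of human chromosome 21, joined to chromosome 12, and serve as a model of Down syndrome. The line was kept by crossing Ts1Cje males with C57Bl/6J females over several generations. The animals were 6 female Ts1Cje mice and 5 female wild-type (WT) littermates, 8 to 10 weeks old, and each gave 1 hippocampus array and 1 cortex array. They were killed by cervical dislocation and decapitated, the labels mention no perfusion, and RNA of the 2 regions was extracted with different kits. RNA integrity numbers were above 9.

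Brain endothelial cells are joined by tight junctions and carry transporters that let nutrients in and pump other molecules out, and together these make up the blood-brain barrier. Pericytes are held on capillaries by platelet-derived growth factor B, which endothelial cells release and the receptor Pdgfrb on pericytes binds. Smooth muscle cells surround arteries and arterioles, where their contractile proteins set the vessel's width.

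Values are log2 intensities as deposited, 1 per gene and array, and a difference of 1 is a doubling. A gene was called where limma's p, adjusted by Benjamini-Hochberg over all 20239 genes, was under 0.05. Ts1Cje animal 64 and WT animal 60 gave arrays unlike the rest: the SD over genes within an array was 1.95 for animal 64 and 1.86 for animal 60 in cortex, against 2.17 to 2.22 on the remaining cortex arrays. Several of the results that these animals move are given with and without them. In cortex the list of cortical neuron markers averaged 9.72 to 10.08 in Ts1Cje mice and 9.61 to 10.08 in WT mice, and in hippocampus 8.14 to 8.20 in Ts1Cje mice and 8.10 to 8.24 in WT mice. The list of hippocampal neuron markers ran the other way, at 8.55 to 8.86 in Ts1Cje and 8.67 to 8.94 in WT hippocampus, against 7.40 to 7.59 in Ts1Cje and 7.31 to 7.76 in WT cortex.

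Vessel genes were measured well within the arrays' range: 12 of the 37 lay below the median gene, and the dimmest were Higd1b, near the 25.4th percentile, and Tbx18, near the 31.9th. Most of the 12 were mural, namely Kcnj8, Abcc9, Anpep, Higd1b, Ndufa4l2, Foxc1, Tbx18, Myh11, Tagln and Des. The others were the endothelial genes Nos3 and Sox17. None of the 37 lies in the triplicated segment, although Cldn5 and Myh11 are on chromosome 16 outside it. The median SD between animals of 1 genotype was 0.129 for endothelial and 0.143 for mural genes in hippocampus, against 0.144 over all genes. In cortex it was 0.152 for endothelial and 0.162 for mural genes, against 0.214 over all genes.

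The first question was whether vessel genes differ between genotypes in hippocampus. limma called 0 of the 37 genes there at an adjusted p under 0.05, against 0.114% of all genes. At an unadjusted p under 0.05 there were 2, Pdgfrb and Abcc9, both lower in Ts1Cje mice, against 3.71% of all genes in either direction and 1.69% that were lower. Both mark pericytes. Differences of the 37 ran between -0.19 (Emcn) and 0.18 (Ly6c1), with a median of -0.03, and 13 were above 0, against 46.3% of all genes, whose median was -0.01.

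Pdgfrb (Entrez 18596), the receptor through which pericytes are recruited to vessels, had a lowest value of 8.41, a median of 8.46 and a highest value of 8.61 in the 6 Ts1Cje hippocampi, against 8.59, 8.64, 8.71, 8.78 and 8.61 in the 5 WT hippocampi. Of the 6 Ts1Cje animals, 5 lay below every WT animal, and animal 87 lay among the WT animals. The means were 8.49 ± 0.0767 in Ts1Cje and 8.67 ± 0.0791 in WT mice (SD), a difference of -0.18 ± 0.0543 (SE, 95% interval -0.30 to -0.06) and the limma adjusted p = 0.951 (Benjamini-Hochberg over all genes). Leaving out each animal in turn gave differences from -0.21 to -0.15, and leaving out animals 60 and 64 together gave -0.21 with a limma adjusted p of 0.408.

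Abcc9 (Entrez 20928) encodes the regulatory subunit of the potassium channel of pericytes that opens when ATP falls. Its lowest, median and highest values were 6.59, 6.65 and 6.80 in Ts1Cje hippocampus, against 6.82, 6.82, 6.80, 6.82 and 6.94 in WT hippocampus. Every Ts1Cje animal was below every WT animal, as for 0.257% of all genes, but the highest Ts1Cje and the lowest WT value were only 0.000149 apart. The difference was -0.15 ± 0.0542 (SE, 95% interval -0.27 to -0.04; limma with Benjamini-Hochberg, adjusted p = 1.00). Kcnj8, which encodes the pore of the same channel, differed by -0.08 ± 0.0627.

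The remaining pericyte genes did not reach an unadjusted p of 0.05 in hippocampus. Vtn, the matrix protein vitronectin, differed by -0.10 ± 0.0826 and Anpep, the surface enzyme aminopeptidase N (CD13), by -0.09 ± 0.108. Higd1b, a mitochondrial protein gene much used as a pericyte marker, was at 0.11 ± 0.0574 and Ndufa4l2, another mitochondrial protein gene, at 0.05 ± 0.0554. So 2 of the 7 pericyte genes were above 0, with a median of -0.09, against -0.01 over all genes.

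The 4 contractile genes were all below 0 in hippocampus, with a median of -0.12, and 0 passed the limma test either way. Acta2 (Entrez 11475), smooth muscle actin, is the leading marker of arterial smooth muscle. Its promoter is printed here beside that of Des because the CArG box, the site that serum response factor is known to bind in smooth muscle genes, can be seen in the one and was not found in the other. The sequences (GRCm38.p6) run from 250 bases before to 50 after the start point given for each promoter, on the gene's own strand. Capitals mark CArG boxes with at most 1 C or G among their 6 middle letters.
Acta2, chr19:34255324-34255623, minus strand: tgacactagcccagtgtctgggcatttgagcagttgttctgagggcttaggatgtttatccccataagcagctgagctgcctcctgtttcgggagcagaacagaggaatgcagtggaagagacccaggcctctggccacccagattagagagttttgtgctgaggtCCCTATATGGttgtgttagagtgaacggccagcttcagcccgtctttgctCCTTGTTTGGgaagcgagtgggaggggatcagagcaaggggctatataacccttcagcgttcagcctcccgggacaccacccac
Des, chr1:75360042-75360341, plus strand: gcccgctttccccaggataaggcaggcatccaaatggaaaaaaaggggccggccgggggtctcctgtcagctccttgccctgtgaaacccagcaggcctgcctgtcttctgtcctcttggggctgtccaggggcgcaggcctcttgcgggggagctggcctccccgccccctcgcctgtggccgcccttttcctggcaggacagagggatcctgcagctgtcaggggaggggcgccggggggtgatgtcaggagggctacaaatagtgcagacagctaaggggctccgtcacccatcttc
The Acta2 boxes, CCCTATATGG and CCTTGTTTGG, start 84 and 34 bases before that start point. The annotated Acta2 gene begins further upstream, at 34255585 on chromosome 19, so the start point and both boxes lie inside it. On both strands, such a box occurred in 9.98% of the table's 32851 promoters, and 0.822% held 2 or more. Of the 24 vessel genes with a promoter in that table, 6 held one: Acta2, Eng, Kdr, Slco1a4, Tbx18 and Tek. With only A or T in the middle, the box was in 0 of the 24 and in 1.63% of all promoters. A match describes the letters of this window and nothing about the factor.

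Acta2 read 8.43 at the lowest, 8.88 at the median and 9.31 at the highest in Ts1Cje hippocampus, against 8.85, 8.94, 8.77, 9.17 and 9.32 in WT hippocampus. The groups overlapped over most of their range, and the difference was -0.17 ± 0.152 (SE, 95% interval -0.50 to 0.17; limma adjusted p = 1.00). Des, which encodes the intermediate filament desmin of smooth muscle and pericytes, came nearest to the test in this group. It read 5.87 at the lowest, 6.07 at the median and 6.25 at the highest in Ts1Cje hippocampus, against 6.13 to 6.46 in WT hippocampus, and 4 of the 6 Ts1Cje animals lay below every WT animal. Its difference was -0.17 ± 0.0788 (SE, 95% interval -0.34 to 0.00; limma adjusted p = 1.00). Tagln, the actin-binding protein transgelin, was at -0.07 ± 0.0936 and Myh11, smooth muscle myosin heavy chain, at -0.03 ± 0.0862. Animal 63 held the lowest value of all 11 animals for 3 of the 4 contractile genes, and without it, as without WT animal 98, 1 of the 4 was above 0.

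The 3 remaining mural genes are regulators. Notch3, the receptor that keeps arterial smooth muscle in its mature state, was at 0.04 ± 0.1, and the transcription factor Foxc1 at 0.02 ± 0.12. Tbx18, a transcription factor of mural cells, was at -0.15 ± 0.085.

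Over the 14 mural genes, the mean per animal averaged 6.94 ± 0.0896 in Ts1Cje hippocampus and 7.01 ± 0.0528 in WT hippocampus (SD, n = 6 and n = 5), a difference of -0.07. The Ts1Cje animals spread more widely, from 6.84 to 7.07, with 4 of the 6 below every WT animal, against 7.00, 6.98, 6.96, 7.00 and 7.10 in WT animals. In whole tissue, fewer cells of a type and less RNA per cell cannot be told apart. Fibroblast and choroid plexus genes lay lower as well, but genes of perivascular macrophages differed by -0.01 in their mean per animal. Of 22 fibroblast genes 5 were above 0 with a median of -0.08. Their mean per animal ran from 7.80 to 8.08 in Ts1Cje and from 7.83 to 8.15 in WT hippocampus. Of 15 choroid plexus genes 0 were above 0, with a median of -0.22 and a mean per animal of 7.83 to 8.58 in Ts1Cje and 8.11 to 8.63 in WT mice. The part of these cell types in the mural values was not tested.

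**Figure D1:**
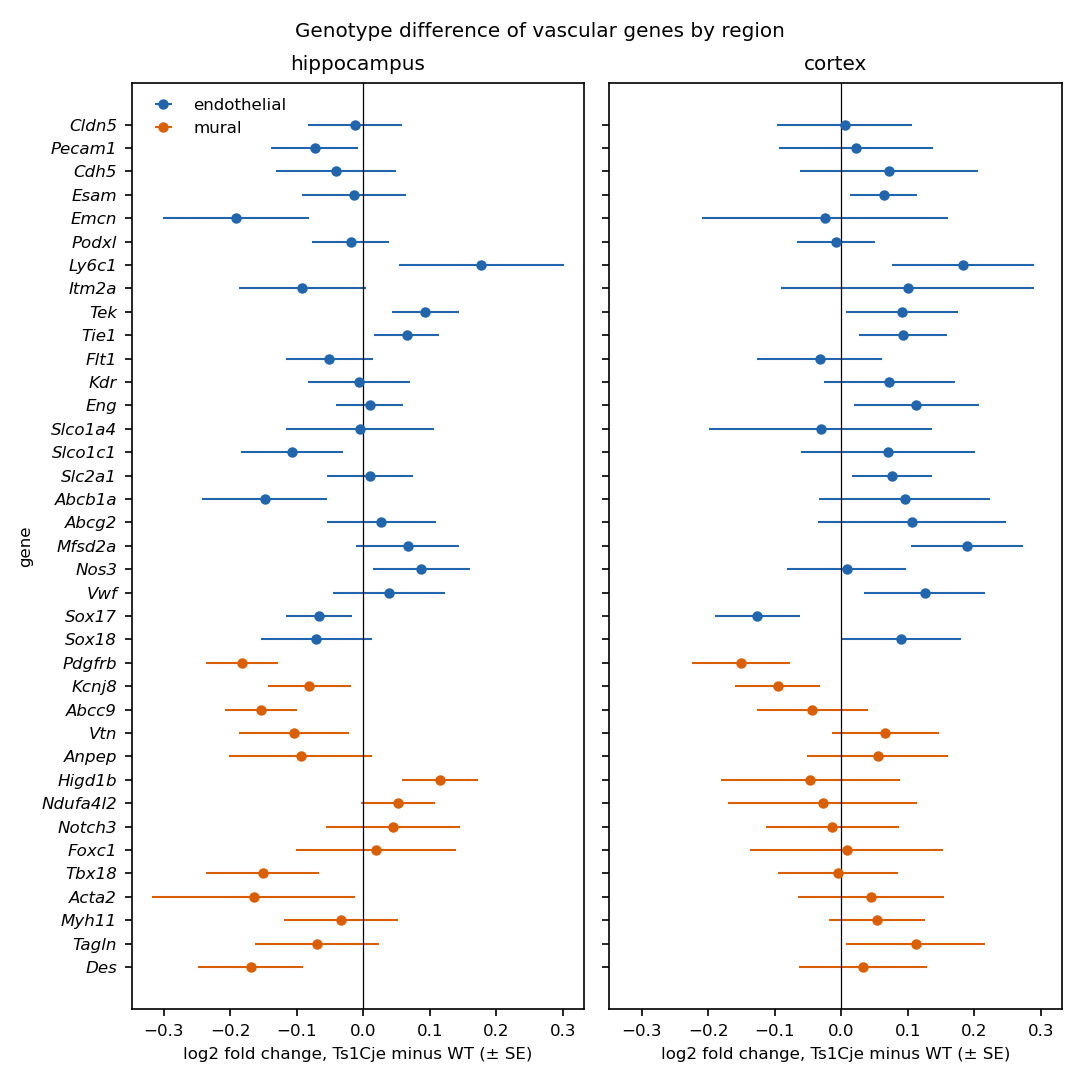
Difference Ts1Cje minus WT (log2) of the 37 vessel genes in hippocampus and cortex, grouped by role. Points are limma estimates and bars their SE; in hippocampus Pdgfrb and Abcc9 lie at -0.18 and -0.15, and no gene passed the adjusted test.

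**Figure D2:**
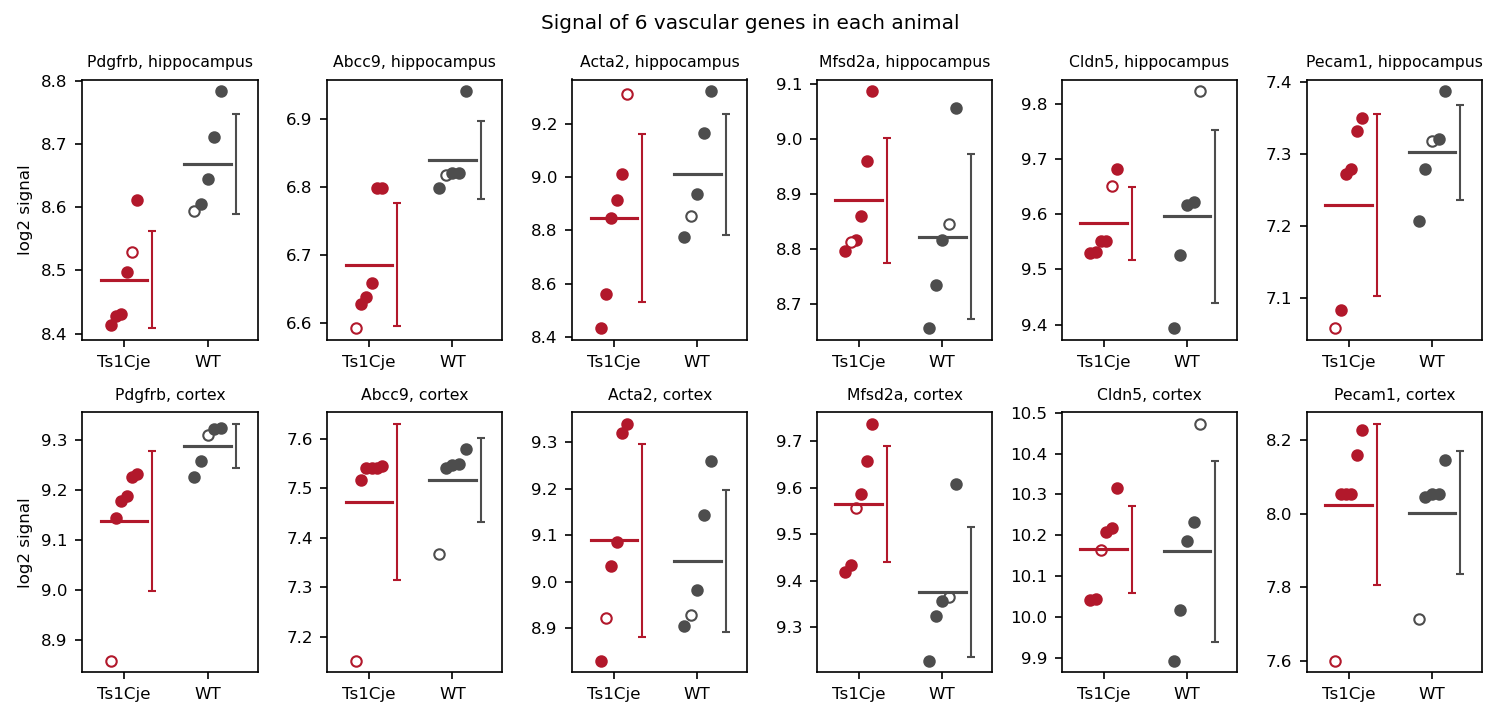
Log2 intensity of Pdgfrb, Abcc9, Acta2, Mfsd2a, Cldn5 and Pecam1 in each animal, Ts1Cje left of WT, in hippocampus and cortex. Points are animals (open circles: animals 60 and 64), lines the group mean and bars the SD. For Pdgfrb 5 of 6 Ts1Cje animals lie below every WT animal in each region, animal 87 only barely in cortex.

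Of the 23 endothelial genes, in hippocampus 9 were above 0, with a median of -0.01, the same as over all genes, and 0 reached an unadjusted p of 0.05. This count depended on the scaling, with 14 above 0 after quantile normalization and 11 after centring each array on its median. It was 6 without Ts1Cje animal 87 and 13 without WT animal 98.

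Among junction and surface genes, Cldn5 (Entrez 12741), the main claudin of the barrier's tight junctions, read 9.53 at the lowest, 9.55 at the median and 9.68 at the highest in Ts1Cje hippocampus. The 5 WT hippocampi read 9.82, 9.39, 9.53, 9.62 and 9.62 and lay on either side of the Ts1Cje animals. The difference was -0.01 ± 0.0705 (SE, 95% interval -0.17 to 0.14), and its sign was the other way after quantile normalization (0.01) and without animals 60 and 64 (0.03). Pecam1 (Entrez 18613), the adhesion molecule CD31, read 7.06 at the lowest, 7.28 at the median and 7.35 at the highest in Ts1Cje hippocampus, against 7.32, 7.28, 7.21, 7.32 and 7.39 in WT hippocampus. The groups overlapped, with 2 Ts1Cje animals (63 and 64) below the WT range, and the difference was -0.07 ± 0.0656 (95% interval -0.22 to 0.07).

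The other junction and surface genes spread more widely. Emcn, the sialomucin endomucin of capillaries and veins, was at -0.19 ± 0.11, with animal 64 lowest at 7.39. Without animals 60 and 64 Emcn was at -0.09. Itm2a, a membrane protein enriched in brain endothelium, was at -0.09 ± 0.0958. Cdh5, the VE-cadherin of adherens junctions, was at -0.04 ± 0.0904, Podxl, the sialomucin podocalyxin, at -0.02 ± 0.0575, and Esam, an endothelial adhesion molecule, at -0.01 ± 0.0778. Ly6c1, a surface protein of mouse brain capillaries, was the 1 of these 8 above 0, at 0.18 ± 0.124. Without animals 60 and 64 Ly6c1 was at 0.08.

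Growth factor receptors lay within 0.09 of 0 in hippocampus. Tek, the angiopoietin receptor Tie2, was at 0.09 ± 0.0505 and its partner Tie1 at 0.06 ± 0.0485. The receptors of vascular endothelial growth factor lay slightly below 0, Kdr at -0.01 ± 0.0765 and Flt1, which binds the factor as a decoy, at -0.05 ± 0.0652. Eng, a co-receptor for transforming growth factor beta, was at 0.01 ± 0.05.

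Barrier transporters were at 0.07 or nearer to 0 for 4 of the 6. Slc2a1, the glucose transporter GLUT1, was at 0.01 ± 0.065, Slco1a4, an organic anion transporter, at -0.01 ± 0.111, and the efflux pump Abcg2 at 0.03 ± 0.0822. The efflux pump Abcb1a, P-glycoprotein, was at -0.15 ± 0.0938 and Slco1c1, the thyroxine transporter, at -0.11 ± 0.0768. Without animals 60 and 64 they were at -0.12 and -0.03. Mfsd2a (Entrez 76574), which carries omega-3 fatty acids as lysolipids into the brain and restrains vesicle traffic across the endothelium, read 8.80 at the lowest, 8.84 at the median and 9.09 at the highest in Ts1Cje hippocampus, against 8.85, 8.66, 8.74, 8.82 and 9.06 in WT hippocampus. The groups overlapped and the difference was 0.07 ± 0.0777.

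Of the remaining endothelial genes, the nitric oxide synthase Nos3 was at 0.09 ± 0.0725 and Vwf, the clotting protein von Willebrand factor, at 0.04 ± 0.0837. Without animals 60 and 64 Vwf was at -0.04. The transcription factor Sox17, which takes part in arterial identity, was at -0.07 ± 0.0499. Of the 6 Ts1Cje animals, 5 lay below every WT animal and animal 97, at 6.516, lay above them all. Animal 94, at 6.449, was barely below the lowest WT value, 6.454. The share of all genes with such a count was not computed. Its relative Sox18 was at -0.07 ± 0.0841.

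In cortex, the same question gave 0 of 37 genes called by limma, against 0.00494% of all genes (1 gene). At an unadjusted p under 0.05 there was 1, Mfsd2a, higher in Ts1Cje mice, against 1.3% of all genes in either direction and 0.889% that were higher. Differences ran from -0.15 (Pdgfrb) to 0.19 (Mfsd2a), with a median of 0.05 and 25 of 37 above 0, against 48.5% of all genes, whose median was -0.00.

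Mfsd2a read 9.42 at the lowest, 9.57 at the median and 9.74 at the highest in Ts1Cje cortex, against 9.37, 9.36, 9.23, 9.33 and 9.61 in WT cortex. All 6 Ts1Cje animals lay above 4 of the WT animals, and 2 lay above all 5, with WT animal 98 reading 9.61. The difference was 0.19 ± 0.0843 (SE, 95% interval 0.00 to 0.37; limma with Benjamini-Hochberg, adjusted p = 1), and it ran from 0.15 to 0.25 with 1 animal left out.

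Cldn5 read 10.04 at the lowest, 10.19 at the median and 10.32 at the highest in Ts1Cje cortex. In WT cortex it read 10.47, 9.89, 10.02, 10.23 and 10.19, and the Ts1Cje animals all fell within that range. The difference was 0.00 ± 0.101 (95% interval -0.22 to 0.23), and it was below 0 after quantile normalization (-0.03) and after centring (-0.01).

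Pecam1 read 7.60 at the lowest, 8.05 at the median and 8.23 at the highest in Ts1Cje cortex, against 7.71, 8.05, 8.05, 8.05 and 8.15 in WT cortex. The lowest animals were 64 among the Ts1Cje and 60 among the WT mice, and the difference was 0.02 ± 0.116 (95% interval -0.23 to 0.28), turning to -0.00 after quantile normalization. Its value of 8.05 was the same number on 5 of the 11 cortex arrays. Identical values on more than 1 array of a region occurred for 17 of the 37 vessel genes in cortex and 15 in hippocampus, against 43.2% of all genes in cortex and 51.8% in hippocampus.

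Of the 23 endothelial genes, 18 were above 0 in cortex, with a median of 0.07. That count moved with single animals. Without Ts1Cje animal 64 it was 20 of 23, with a median of 0.13, without WT animal 60 it was 12 of 23, with a median of 0.03, and without both it was 18 of 23, with a median of 0.07. In cortex animal 60 held the lowest value for 7 of the 23 genes (30.4%), against 24.5% of all genes. After quantile normalization or centring it was 16 of 23. The mean over the 23 genes was 8.85 ± 0.0973 in Ts1Cje and 8.79 ± 0.0911 in WT cortex (SD), a difference of 0.06 that was 0.10 without animal 64, 0.02 without animal 60 and 0.06 without both. Red cell genes, which follow the blood left in vessels, were above 0 for 6 of 6 in cortex, with a median of 0.12. Their mean per animal was 7.54 to 8.05 in Ts1Cje and 6.88 to 7.73 in WT mice, with WT animal 60 lowest. The difference of these means was 0.23 with all animals and 0.10 without animals 60 and 64. The part of red cells in the endothelial values was not tested.

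By role, 6 of 8 junction and surface genes were above 0 in cortex, 4 of 5 growth factor receptors, 5 of 6 transporters, and 3 of 4 of the enzyme, clotting and transcription factor genes. Of the 8 junction genes, 7 were above 0 without animal 64, 3 without animal 60 and 7 without both, and of the 6 transporters 6, 2 and 5. The receptors read 0.09 ± 0.084 for Tek, 0.09 ± 0.066 for Tie1, 0.11 ± 0.0935 for Eng, 0.07 ± 0.0985 for Kdr and -0.03 ± 0.0935 for Flt1. Transporters other than Mfsd2a ran from -0.03 ± 0.168 for Slco1a4 to 0.11 ± 0.141 for Abcg2, with Slc2a1 at 0.08 ± 0.0602. Sox17 was the lowest endothelial gene, at -0.13 ± 0.0638, with 4 of 6 Ts1Cje animals below every WT animal. Ly6c1 was at 0.18 ± 0.107, the same size as in hippocampus with all animals, and Vwf at 0.13 ± 0.0914.

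Pdgfrb, the lowest of the 37 genes in cortex, read 8.86 at the lowest, 9.18 at the median and 9.23 at the highest in Ts1Cje cortex, against 9.31, 9.26, 9.32, 9.32 and 9.23 in WT cortex. As in hippocampus, 5 of the 6 Ts1Cje animals lay below every WT animal, and the cortex and hippocampus arrays came from the same animals. Here animal 97 lay among the WT animals, and animal 87, at 9.2249, was barely below WT animal 98, at 9.2255. The share of all genes with such a count was not computed. The difference was -0.15 ± 0.0744 (SE, 95% interval -0.31 to 0.01; limma adjusted p = 1). Animal 64 was the lowest Ts1Cje animal by a wide margin, and without it and animal 60 the difference was -0.09.

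Abcc9 read 7.15 at the lowest, 7.54 at the median and 7.55 at the highest in Ts1Cje cortex, against 7.37, 7.55, 7.54, 7.55 and 7.58 in WT cortex. Apart from animals 64 and 60 the readings lay close together, and the difference was -0.04 ± 0.0836. Kcnj8 was at -0.10 ± 0.0637. Of the 7 pericyte genes, 2 were above 0 in cortex as in hippocampus, with a median of -0.04, but after quantile normalization 4 were.

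The contractile genes were all 4 above 0 in cortex, with a median of 0.05, where they had all been below 0 in hippocampus, and again 0 passed the test. Acta2 read 8.83 at the lowest, 9.06 at the median and 9.34 at the highest in Ts1Cje cortex, against 8.93, 8.91, 9.14, 8.98 and 9.26 in WT cortex. The groups overlapped, and the difference was 0.04 ± 0.109 (95% interval -0.19 to 0.28). Tagln was at 0.11 ± 0.105, Myh11 at 0.05 ± 0.0719 and Des at 0.03 ± 0.0965, and 3 of the 4 stayed above 0 without animal 63, 64 or 97. Over all 14 mural genes, 7 were above 0 with a median of 0.00.

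**Figure D3:**
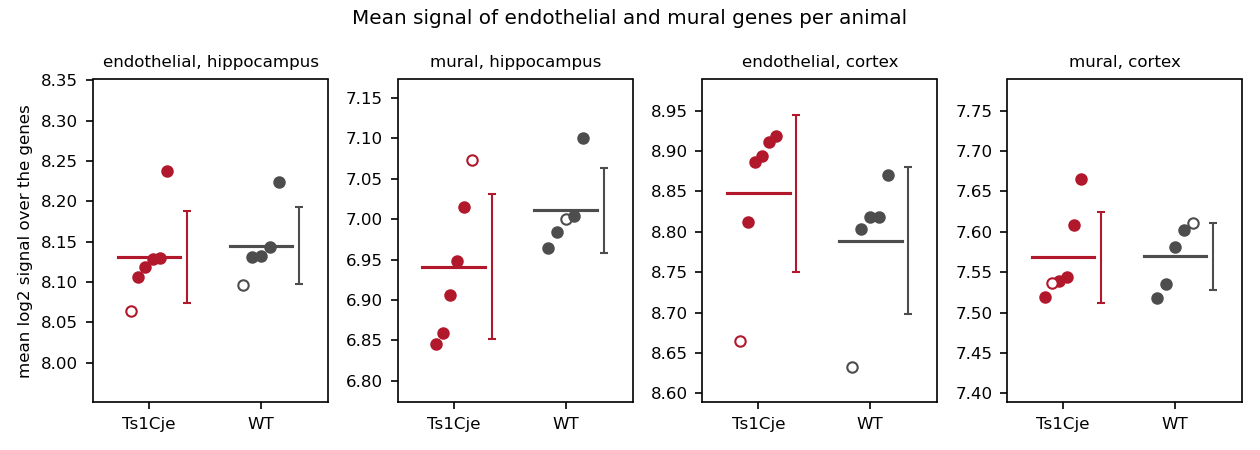
Mean log2 intensity over the 23 endothelial and the 14 mural genes in each animal, Ts1Cje left of WT, in hippocampus and cortex. Points are animals (open circles: animals 60 and 64), lines the group mean and bars the SD; the mural mean was 6.94 in Ts1Cje and 7.01 in WT hippocampus, and the groups overlap in every panel.

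The calls were also made without animals 60 and 64. limma again called 0 of the 37 genes in each region, against 0.183% of all genes in hippocampus and 0.158% in cortex. At an unadjusted p under 0.05 there were 6 in hippocampus, against 8.37% of all genes: Tek (0.11) and Higd1b (0.12) were higher in Ts1Cje mice, and Pdgfrb (-0.21), Abcc9 (-0.14), Vtn (-0.15) and Des (-0.15) were lower. In cortex there were 5, against 5.97% of all genes: Tek (0.12), Tie1 (0.10) and Vwf (0.18) were higher, and Sox17 (-0.15) and Pdgfrb (-0.09) were lower. The mural mean in hippocampus then differed by -0.10.

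The balance of the vessel's 2 layers was taken as the endothelial mean minus the mural mean of each animal. It averaged 1.19 ± 0.102 in Ts1Cje and 1.13 ± 0.0264 in WT hippocampus (SD), and 1.28 ± 0.0897 in Ts1Cje and 1.22 ± 0.115 in WT cortex. In hippocampus 5 of the 6 Ts1Cje animals, at 1.18 to 1.27, lay above every WT animal, at 1.10 to 1.17, and animal 64, at 0.99, lay below them all. Without animals 60 and 64, an omission chosen after seeing the data, the hippocampal means were 1.23 ± 0.036 in Ts1Cje and 1.14 ± 0.018 in WT mice (SD, n = 5 and n = 4). The groups then did not overlap. Each of these animals had the lowest balance of its genotype in both regions. In hippocampus the SD over genes was 1.98 for animal 64 and 2.06 for animal 60, against 2.14 to 2.19 on the remaining arrays. The part of this array spread in the balance was not tested. In cortex 2 of the 6 Ts1Cje animals lay above every WT animal, and without animals 60 and 64 the means were 1.31 ± 0.0571 in Ts1Cje and 1.27 ± 0.0351 in WT mice, with overlap. This balance was formed from genes whose differences were already known, so it has no test.

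A further comparison asked whether the genotype difference itself varied between the regions. limma called 0 of the 37 genes by adjusted p, as it called 0.0% of all genes, and 0 at an unadjusted p under 0.05, against 1.28% of all genes. With the animal as a random block, which the shared animal numbers allow, 2 genes reached an unadjusted p of 0.05, against 4.51% of all genes: Des, at -0.20 ± 0.126, and Abcb1a, at -0.24 ± 0.163 (hippocampus minus cortex, SE without the block). For each, the blocked limma adjusted p = 0.941. So the opposite signs of the contractile genes in the 2 regions were not shown to differ.

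Levels were then compared between hippocampus and cortex over all 11 animals, with each array centred on its median, since the cortex arrays' medians (7.53 to 7.62) lay above those of hippocampus (6.91 to 6.95). limma called 13 of the 37 genes at an adjusted p under 0.05, 5 higher in hippocampus and 8 lower, against 41.4% of all genes (19.9% higher and 21.6% lower), a share no larger than the background. With the animal as a random block it called 19, 8 higher and 11 lower, against 54.2% of all genes (26.0% higher and 28.2% lower). The block added Kdr, Ndufa4l2 and Des as higher and Pecam1, Eng and Abcc9 as lower. Unless the block is named, the regional p values below come from the fit without it, which ignores that both regions came from the same animals. Without centring, 36 were lower in hippocampus and 0 higher, against 93.8% of all genes called lower, so each direction here is relative to the median gene. Region and extraction kit cannot be told apart.

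Contractile genes of arteries were among the highest in hippocampus. Acta2 averaged 1.96 ± 0.277 above the array median in hippocampus and 1.48 ± 0.166 in cortex (SD, n = 11), a difference of 0.49 ± 0.0955 (limma, Benjamini-Hochberg adjusted p = 0.000282), and was higher in 9 of 11 animals. Myh11 was higher in hippocampus in all 11 animals, by 0.28 ± 0.0556 (limma adjusted p = 0.000314). Tagln was not called with or without the block. Des, at 0.15 and higher in 10 of 11 animals, fell just outside the test without the block (limma adjusted p = 0.0523). With the random block it was called (limma adjusted p = 0.00462).

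The endothelial transcription factors Sox17 and Sox18 were also higher in hippocampus, Sox17 by 0.23 ± 0.0395 in 11 of 11 animals (limma adjusted p = 5.35e-05) and Sox18 by 0.21 ± 0.0609 in 10 of 11 (adjusted p = 0.00794).

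Barrier transporters divided between the regions. The thyroxine transporter Slco1c1 was higher in hippocampus in all 11 animals, at 2.54 ± 0.137 above the array median in hippocampus and 2.25 ± 0.22 in cortex, a difference of 0.30 ± 0.0786 (limma adjusted p = 0.0042). Abcb1a was lower in hippocampus, at -0.32 ± 0.0831 (limma adjusted p = 0.00351, higher in hippocampus in 1 of 11 animals). Slco1a4 was at -0.27 ± 0.106 (limma adjusted p = 0.0468), a call that was lost in 9 of 11 omissions of 1 animal. Mfsd2a (0.01), Abcg2 (-0.02) and Slc2a1 (-0.03) were not called.

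The 4 lowest genes in hippocampus relative to cortex were endothelial. Emcn averaged 1.01 ± 0.213 above the array median in hippocampus and 1.45 ± 0.319 in cortex, a difference of -0.44 ± 0.113 (limma adjusted p = 0.00346, higher in hippocampus in 1 of 11 animals). Ly6c1 differed by -0.31 ± 0.0841 (limma adjusted p = 0.00558), and all 11 animals were lower in hippocampus; Abcb1a and Slco1a4 are given with the transporters. Tek (-0.18 ± 0.0483) and Tie1 (-0.15 ± 0.0386), the angiopoietin receptor pair, were both called lower, as were the mural regulators Notch3 (-0.24 ± 0.0686) and Tbx18 (-0.21 ± 0.0647), the last a call that was lost without WT animal 65.

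Other tissue differs between the dissections too. The choroid plexus list averaged 7.83 to 8.63 over all 11 hippocampi and 6.40 to 7.68 over the cortices, although the cortex arrays had the higher medians. Its part in the regional differences was not tested.

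**Figure D4:**
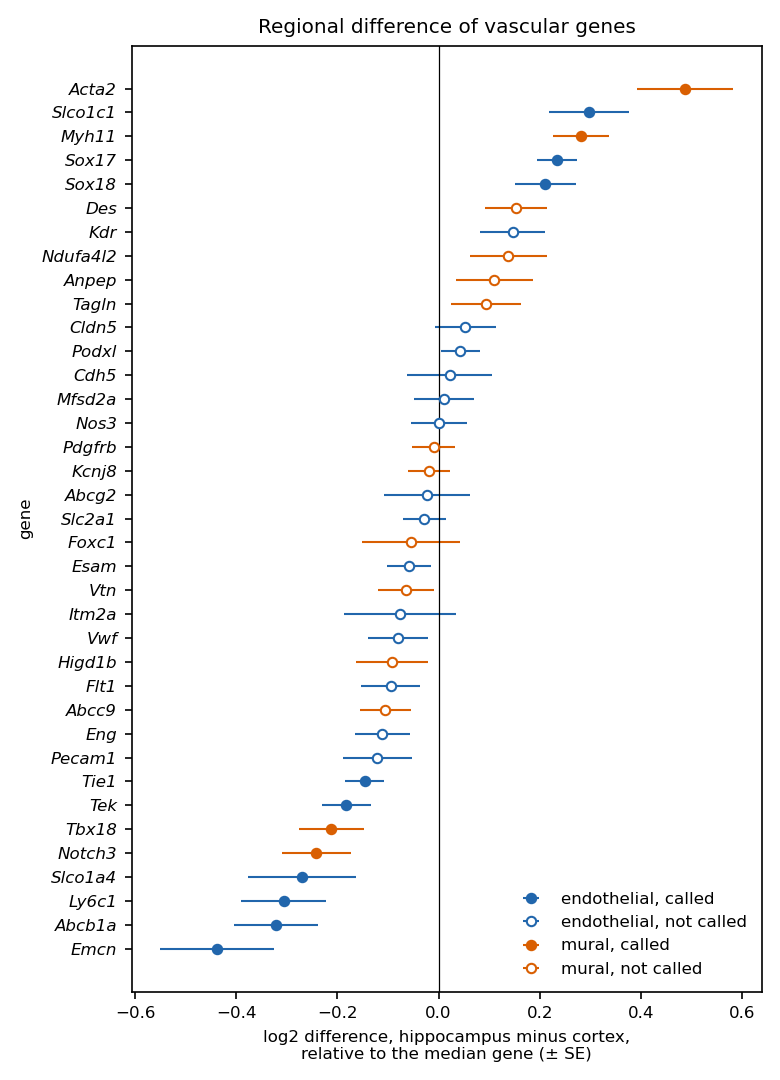
Difference hippocampus minus cortex (log2, each array centred on its median) of the 37 vessel genes over 11 animals. Points are limma estimates, filled where called without the animal block and open where not, and bars their SE. Acta2 lies highest at 0.49 and Emcn lowest at -0.44.

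The pathways that build and maintain vessels were read from further lists of genes. limma called 0 genes of the ligand, Wnt, tight junction, Notch, transforming growth factor, transcription factor, barrier, mural and basement membrane lists in either region. Of 12 ligand genes of the endothelial growth factor, platelet-derived growth factor and angiopoietin families, 3 were above 0 in hippocampus and 6 in cortex. Pdgfb itself, the ligand of Pdgfrb, was at 0.03 ± 0.0612 in hippocampus and -0.07 ± 0.0899 in cortex. Vegfa, which drives endothelial growth through Kdr, was at -0.06 ± 0.0629 in hippocampus and -0.03 ± 0.0679 in cortex.

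Wnt signalling induces the barrier in brain endothelium, and 4 of its 14 genes were above 0 in hippocampus and 8 in cortex. Its target Apcdd1 read -0.17 ± 0.0711 in hippocampus (limma adjusted p = 1.00), with 5 of 6 Ts1Cje animals below every WT animal, and the ligand Wnt7b -0.15 ± 0.0634 (adjusted p = 1.00). Of the 11 Notch genes, 3 were above 0 in hippocampus and 5 in cortex, and Heyl, a Notch target of mural cells, read -0.15 ± 0.0634 in hippocampus (limma adjusted p = 1.00). Of 14 genes of the transforming growth factor beta and bone morphogenetic protein pathways, 2 were above 0 in hippocampus and 9 in cortex. The basement membrane list had 4 of 15 above 0 in hippocampus and 8 in cortex, with its collagen gene Col4a2 at 0.13 ± 0.0509 in hippocampus (limma adjusted p = 1.00).

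Foxq1 had the lowest p of these lists. This transcription factor of brain endothelium read 6.53 to 6.73 in Ts1Cje and 6.74 to 6.94 in WT hippocampus. Every Ts1Cje animal was below every WT animal, as for 0.257% of all genes, by a narrow gap. The difference was -0.20 ± 0.055 (limma with Benjamini-Hochberg, adjusted p = 0.725). In cortex it was at -0.08 ± 0.0946. The list of endothelial transcription factors that holds it had 4 of 14 above 0 in hippocampus and 5 in cortex. Of 11 further tight junction genes, 7 were above 0 in hippocampus and 8 in cortex, of 33 further endothelial genes 15 and 22, and of 28 further mural genes 9 and 11.

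Rgs5, a regulator of G protein signalling abundant in pericytes, differed by -0.00 ± 0.068 in hippocampus and 0.04 ± 0.108 in cortex. Cspg4, the proteoglycan NG2 that pericytes share with oligodendrocyte precursors, was at -0.04 ± 0.0653 in hippocampus and -0.02 ± 0.0747 in cortex.

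Among all the lists, only that of vascular genes inside the triplicated segment held calls between genotypes with all animals. Of 9 such genes, 9 were above 0 in hippocampus with a median of 0.35, and limma called 4 of them higher, against 0.104% of all genes: Rcan1, an inhibitor of calcineurin (0.39 ± 0.0456, adjusted p = 0.0209), the kinase Dyrk1a (0.34 ± 0.0443, adjusted p = 0.0209), the interferon receptor Ifnar1 (0.46 ± 0.0706, adjusted p = 0.0395) and the transcription factor Ets2 (0.44 ± 0.0707, adjusted p = 0.0462). For each of these 4, the lowest Ts1Cje animal was above the highest WT animal in both regions, as for 0.38% of all genes in hippocampus and 0.232% in cortex. In cortex 8 of the 9 were above 0 with a median of 0.44, and 0 were called. Among all 73 measured genes of the segment, 71 were above 0 in hippocampus and limma called 17 higher. In cortex 57 of the 73 were above 0 and 0 were called. Without animals 60 and 64, limma called 5 of the 9 higher in hippocampus and 6 in cortex.

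Erg, the transcription factor of the same segment that maintains endothelial identity and drives genes such as Cdh5, had a difference near 0. It read 6.34 at the lowest, 6.46 at the median and 6.71 at the highest in Ts1Cje hippocampus, against 6.39 to 6.65 in WT hippocampus, a difference of 0.00 ± 0.0707. In cortex it read 7.22 to 7.41 in Ts1Cje and 7.10 to 7.39 in WT mice, a difference of 0.05 ± 0.0655. Of the others below the segment's median in hippocampus, the blood and endothelial transcription factor Runx1 was at 0.05 ± 0.0749 there and 0.18 ± 0.0743 in cortex, and the claudin Cldn14 at 0.11 ± 0.0801 in hippocampus and -0.06 ± 0.176 in cortex. Over all 73 measured genes of the segment the median difference was 0.29 in hippocampus and 0.33 in cortex. Erg's signal lay near the 44th percentile of all genes, and Dyrk1a's near the 97th, and the part of signal level in this contrast was not tested.

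**Figure D5:**
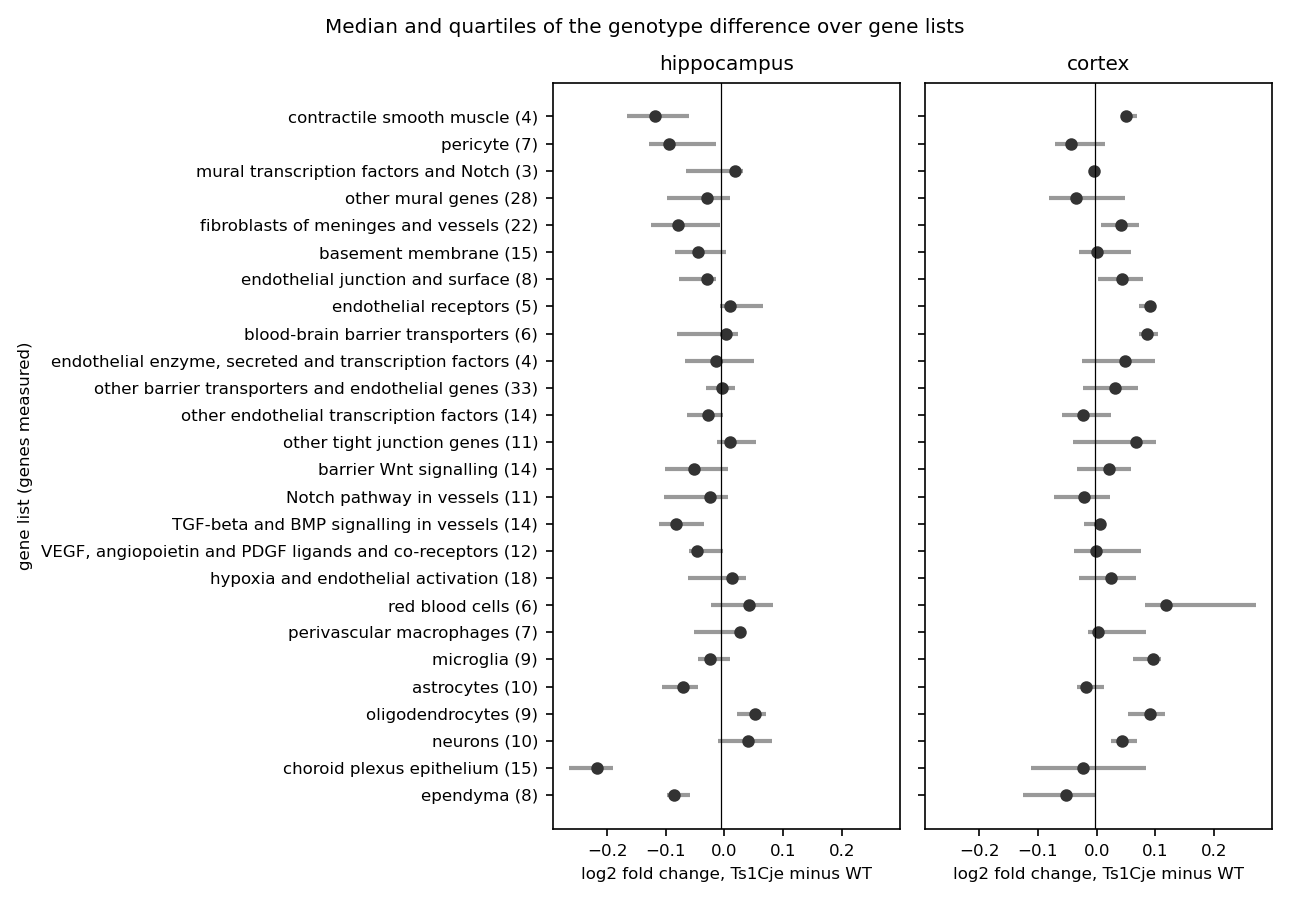
Differences Ts1Cje minus WT (log2) of lists of genes in hippocampus and cortex. The list of the triplicated segment and those of cortical and hippocampal neurons are not drawn. Dots are the median over the list, bars its quartiles and the vertical line the median of all 20239 genes. The contractile smooth muscle list stands at -0.12 in hippocampus and 0.05 in cortex.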

How the data were processed

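RNA of hippocampus and cortex was hybridised to Affymetrix Mouse Gene 1.0 ST arrays, 1 array for each of 11 animals in each region. The authors deposited log2 intensities made by robust multi-array average (RMA), per the submitters' processing notes; the RMA version is not given in the sources used here, nor is it stated if 1 run covered both regions. Of 21225 features, 986 without a gene name were left out. Array values have no read depth, so the number of animals limits the precision. Genotypes were compared in each region with limma 3.58.1 in R 4.3.3 (lmFit, eBayes, Benjamini-Hochberg over 20239 genes); the genotype by region term and the region difference used all 22 arrays. For the region difference each array was first centred on its median. The code was tested on simulated data.

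The vessel genes and all lists were chosen with earlier results of these data known. Per-animal values are given for vessel genes with an unadjusted p under 0.05 or with groups that did not overlap in a region, and always for Cldn5, Pecam1, Pdgfrb and Acta2. From other lists the text names called genes, otherwise up to 3 with the lowest unadjusted p, and always Erg, Rgs5 and Cspg4; Des, Emcn, Pdgfb, Vegfa, Runx1, Cldn14 and the red cell gene Hbb-bs were added after their values were seen. Regional genes are those called, with the 4 highest and 4 lowest in full.

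The labels give the 2 regions of an animal the same number, and deviations from the group means correlated within animals (r = 0.0523 to 0.761, over 0.1 in 9 of 11). For WT animal 60 the title and the description give different numbers, and the title was used. Alternatives were array weights, quantile normalization, centring, replicate blocks, other filters on dim genes and leaving out each animal. Leaving out animals 60 and 64 together was chosen after seeing the data.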

Additional observations from a re-analysis of the deposited data

Results flagged for a closer look

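Of 28 sets of values checked (6 Ts1Cje or 5 WT animals for a gene or a mean over genes), 6 held an animal set apart from the rest of its group by a large gap. For normally distributed values without ties, chance alone gives such a gap in about 1 in 20 sets. The sets here share animals and genes, and Pecam1 has identical values on several cortex arrays, so the count measures no excess over that rate. Among Ts1Cje cortices, animal 64 was lowest for Pdgfrb (8.86) and for Pecam1 (7.60). Among WT cortices, animal 60 was lowest for Pecam1 (7.71) and for the endothelial mean (8.63). Among WT hippocampi, animal 98 was highest for Abcc9 (6.94) and for the mural mean (7.10).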

How the results depend on the processing

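In the genotype comparisons and the genotype by region term, limma's adjusted p called 0 of the 37 genes under every alternative run. The count at an unadjusted p under 0.05 moved more; the share of all genes under the same setting follows in brackets. In cortex (1 gene) it was 7 with array weights (7.26%), 3 in a single fit on all arrays (2.28%), 3 with the random replicate block (1.9%), 5 without animals 60 and 64 (5.97%), and 0 to 2 with 1 animal left out. In hippocampus (2) it was 6 with array weights (9.74%), 6 without animals 60 and 64 (8.37%), and 2 to 4 with 1 animal left out, at 4 without 60 (5.13%), 61 (3.68%) or 64 (7.22%). For the genotype by region term (0) it was 6 with array weights (6.44%), 1 after quantile normalization (1.65%), 2 with the random (4.51%) or fixed (4.2%) replicate block, 2 without animals 60 and 64 (5.34%), and 0 to 2 with 1 animal left out. Calls between regions (13) numbered 23 with array weights (67.7%), 36 without centring (95.3%, and 36 also at an unadjusted p), 21 without animals 60 and 64 (65.5%), 18 with the fixed replicate block (54.1%), and 11 to 17 with 1 animal left out; the block changed no genotype call. The endothelial difference in hippocampus (-0.01 from each animal's mean level over the 23 genes) was -0.10 from each animal's median level over them. Signs turned for Cldn5 in cortex (-0.025 after quantile normalization, -0.0074 centred, -0.062 to 0.083 with 1 animal left out) and in hippocampus (0.021 with array weights, 0.011 after quantile normalization, 0.030 without animals 60 and 64, -0.064 to 0.043 with 1 animal left out), for Pecam1 in cortex (-0.0015 after quantile normalization, -0.050 to 0.107 with 1 animal left out), for Acta2 in cortex (-0.0052 to 0.0991 with 1 animal left out), and without centring for the regional genes Acta2 (-0.14), Slco1c1 (-0.33), Myh11 (-0.35) and Sox17 (-0.39). Causes were not tested.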

Other observations

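Some genes of tissue next to the vessels were low in Ts1Cje hippocampus without passing the test. In the choroid plexus list, the ageing-related gene Kl read -0.30 ± 0.127, the bicarbonate transporter Slc4a5 -0.29 ± 0.13 and transthyretin, Ttr, -0.17 ± 0.0806 (Ts1Cje minus WT, log2, SE). Without animals 60 and 64, 1 of the 15 was above 0 and the median was -0.16. Among fibroblast genes of the meninges and vessel wall, Lum, the proteoglycan lumican, read -0.23 ± 0.0834 and its relative Bgn -0.24 ± 0.112 in hippocampus, while in cortex 17 of the 22 were above 0 with a median of 0.04. Of 8 ependymal genes, 1 was above 0 in hippocampus and 2 in cortex.

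Genes of vessel activation and low oxygen had 11 of 18 above 0 in each region. Lcn2, the iron-binding protein lipocalin 2, read 0.20 ± 0.0691 (limma adjusted p = 1.00) and Vcam1, the adhesion molecule for white cells, -0.16 ± 0.0668 (adjusted p = 1.00) in hippocampus. Of 9 microglial genes, 3 were above 0 in hippocampus and 8 in cortex, with a cortical median of 0.10, and of 7 genes of perivascular macrophages 4 in each region. Of 10 astrocyte genes, 1 was above 0 in hippocampus and 3 in cortex, of 10 neuronal genes 7 and 8, and of 9 oligodendrocyte genes 8 in each region. Red cell genes, 4 of 6 above 0 in hippocampus, varied between animals of 1 genotype: Hbb-bs ran from 6.55 to 9.28 in WT cortex, against 8.22 to 9.91 in Ts1Cje cortex.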
